A study of Homo sapiens with 15 samples.

Results

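Described here are 9 genes at the end of the long arm of human chromosome 8: MYC and 8 neighbours, PVT1, TRIB1, LRATD2, NSMCE2, WASHC5, CCDC26, CYRIB and ASAP1. They were chosen by symbol and place on the chromosome, with earlier results of these data known. All 9 were found among the 57500 genes counted, and all 9 passed the filter on low counts that left 15517 genes to test. RNA was sequenced from K562, a human leukaemia cell line from chronic myeloid leukaemia, in 15 libraries of 5 groups of 3. The groups were JQ1-FCPF with sgRNA, JQ1-FCPF without sgRNA, JQ1 with sgRNA, JQ1 without sgRNA, and the control. Both compounds were given at 1 µM, and all groups are labelled 1 h. JQ1 is a small-molecule inhibitor of BET bromodomains. JQ1-FCPF is a version of it named after the FCPF tag carried by the transfected Cas9 protein, Cas9FCPF. All 4 treated groups carry Cas9FCPF, with or without a single guide RNA (sgRNA), whose target the labels leave unnamed; background knowledge of the study places it at MYC. The series title speaks of dCas9, a form that does not cut DNA, and the labels of Cas9. The control is labelled wild type and untreated, although the series text calls it DMSO, and nothing states that it was transfected. In a comparison with the control, compound, Cas9FCPF, transfection and, in the groups that have it, the sgRNA therefore cannot be told apart. No label says that replicates were separate cultures, so p-values measure the spread between these libraries, which may be technical.

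MYC encodes a transcription factor that pairs with MAX and drives genes of ribosome production, nucleotide synthesis and growth, and its mRNA is short-lived. In blood cells MYC depends on distant enhancers, and it is a common readout of BET inhibitors. The long non-coding RNA gene PVT1 lies directly downstream of MYC, and further downstream stands CCDC26, another long non-coding RNA gene studied in myeloid leukaemia. TRIB1 is a pseudokinase that brings C/EBP-alpha to the ubiquitin ligase COP1. NSMCE2 is the SUMO ligase of the SMC5-SMC6 complex in DNA repair, and WASHC5 (strumpellin) is a subunit of the WASH complex, which builds actin on endosomes. CYRIB binds RAC1 and restrains actin assembly by the WAVE complex, and ASAP1 is a GTPase-activating protein for ARF proteins. LRATD2 is a less studied protein with an LRAT-like domain.

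On GRCh38, MYC (ENSG00000136997) occupies chromosome 8 from 127735434 to 127741434 on the plus strand. PVT1 (ENSG00000249859) runs on the same strand from 127794533 to 128101253, and its start site lies 59.1 kb beyond that of MYC. On the near side of MYC, WASHC5 (ENSG00000164961) spans 125024260 to 125091840 on the minus strand, and NSMCE2 (ENSG00000156831) spans 125091679 to 125367120 on the plus strand. TRIB1 (ENSG00000173334) follows from 125430321 to 125438405 on the plus strand, and LRATD2 (ENSG00000168672) from 126552442 to 126558393 on the minus strand. Beyond PVT1 lie CCDC26 (ENSG00000229140), from 129351691 to 129680239, CYRIB (ENSG00000153310), from 129839593 to 130017129, and ASAP1 (ENSG00000153317), from 130052104 to 130443660, all on the minus strand. NSMCE2 and WASHC5 start head to head and share 162 exon bases on opposite strands. CCDC26 shares 122 exon bases with ENSG00000254223 on its own strand. Whether strand was used in counting is not given in the sources used here, so reads in these stretches cannot be assigned with certainty. The counts are over whole genes, exons together, and do not separate isoforms.

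Library totals were 12625669 to 17544518 counts, and levels are given as CPM, each count scaled to its library's total; 1 count in the smallest library is 0.0792 CPM. All 14 markers of K562 cells, among them GATA1 and the embryonic and fetal globins, averaged above 5 CPM, which the label lymphoblast does not convey. Among markers of other cells, summed levels were 3.13 to 6.23 CPM for 5 B cell genes, 21.4 to 35 CPM for 5 T and NK cell genes and 11.2 to 20.7 CPM for 4 monocyte genes. They were 64.3 to 79.2 CPM for 4 epithelial genes and 1.82 to 6.44 CPM for 5 fibroblast genes. CD3D, LYZ and EPCAM made up most of the T and NK cell, monocyte and epithelial sums, while MS4A1, CD2, CSF1R and CDH1 averaged below 1 CPM. On the first principal component (29% of the variance) replicate 2 of JQ1-FCPF with sgRNA lay at 31.27, against -18.75 and -17.47 for the other replicates of that group. It lay beyond the 6 JQ1 libraries, at 16.49 to 28.25, whereas the control libraries lay at -24.14 to -19.40. Replicate 1 of JQ1 with sgRNA had the highest share of mitochondrial counts, 7.46%, in a range of 2.31% to 7.46%. Values without these 2 libraries, which stand apart, are given where they change the call of a member, and for counts of MYC target genes.

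MYC was lowest in JQ1-FCPF with sgRNA, and PVT1 beside it was not. The level of MYC was 57.5, 57.7 and 58 CPM in the 3 libraries of JQ1-FCPF with sgRNA. In JQ1-FCPF without sgRNA it was 198, 136 and 168 CPM. It was 111, 122 and 157 CPM in JQ1 with sgRNA, 157, 163 and 145 CPM in JQ1 without sgRNA, and 197, 183 and 207 CPM in the control. Every library of JQ1-FCPF with sgRNA lay below every one of the 12 others, and replicate 2, which stands apart on the principal component, had a value between those of replicates 1 and 3. The group means were 57.7 ± 0.249 CPM in JQ1-FCPF with sgRNA, 168 ± 31.1 CPM in JQ1-FCPF without sgRNA, 130 ± 23.8 CPM in JQ1 with sgRNA, 155 ± 9.25 CPM in JQ1 without sgRNA and 196 ± 12.1 CPM in the control (SD, n = 3 each). All 3 libraries of JQ1-FCPF with sgRNA had nearly the same value, and their spread of 0.249 CPM is below the 2.01 CPM that counting error alone gives at this depth, so it is no measure of the spread between cultures.

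Under JQ1-FCPF, MYC fell 2.83-fold with sgRNA (log2 fold change -1.50, SE 0.14; edgeR adjusted p = 3.67e-07). A gene was called at a Benjamini-Hochberg adjusted p under 0.05 in edgeR's quasi-likelihood test over all genes. Its 95% confidence interval was -1.78 to -1.22. Under JQ1 the sgRNA gave MYC a log2 fold change of -0.27 (SE 0.13, 95% confidence interval -0.54 to 0.01, edgeR adjusted p = 0.603), and the groups overlapped. The sgRNA effect under JQ1-FCPF minus that under JQ1, the interaction, was -1.24 for MYC (SE 0.19, 95% confidence interval -1.62 to -0.85, edgeR adjusted p = 0.00187). With the sgRNA present, MYC was 2.14-fold lower with JQ1-FCPF than with JQ1 (log2 fold change -1.10, edgeR adjusted p = 8.14e-05). With no sgRNA, MYC did not pass between JQ1-FCPF and JQ1 (log2 fold change 0.14, 95% confidence interval -0.14 to 0.41, edgeR adjusted p = 0.554).

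The group means of MYC ran, from high to low, control, JQ1-FCPF without sgRNA, JQ1 without sgRNA, JQ1 with sgRNA and JQ1-FCPF with sgRNA. Among neighbours in this order, the step between JQ1-FCPF with sgRNA and JQ1 with sgRNA passed the test and the other 3 did not. Against the control, MYC fell with JQ1-FCPF and sgRNA by 1.73 on the log2 scale (SE 0.14, edgeR adjusted p = 4.37e-08) and with JQ1 and sgRNA by 0.63 (SE 0.13, edgeR adjusted p = 0.00486). JQ1 without sgRNA gave MYC -0.36 against the control on the same scale (95% confidence interval -0.63 to -0.09, edgeR adjusted p = 0.0739). All 3 of those JQ1 libraries lay below the 3 control libraries. That comparison passed with no filter on low counts (edgeR adjusted p = 0.0217), without the 2 libraries that stand apart (0.00737) and in a fit of those groups alone (0.000441). Neither of the 2 libraries is in that comparison, so leaving them out acted through the fit that all groups share. For JQ1-FCPF without sgRNA the value was -0.22 (95% confidence interval -0.50 to 0.05, edgeR adjusted p = 1.0). In bulk RNA, fewer cells of a type and less RNA per cell cannot be told apart. The summed level of the 14 K562 markers was 2270 to 2530 CPM in JQ1-FCPF with sgRNA, against 2640 to 2740 CPM in JQ1-FCPF without sgRNA. In that comparison 3 of the 14 were called, all lower, KLF1, LMO2 and TAL1 (21.4%, against 6.25% of all genes). The sum was 2230 to 2770 CPM in JQ1 with sgRNA, 2720 to 2940 CPM in JQ1 without sgRNA and 2710 to 2780 CPM in the control. Against the control, JQ1 with sgRNA had 3 of the 14 lower and 1 higher (28.6% called, against 14.2% of all genes). Of the markers of other cells, COL1A1 was called higher in JQ1-FCPF with sgRNA than without. Of the 5 fibroblast markers it alone was tested, and the other 4 averaged under 1 CPM. The fibroblast sum was 4.44 to 6.44 CPM in JQ1-FCPF with sgRNA, against 2.23 to 2.34 CPM in JQ1-FCPF without sgRNA. It was 3.81 to 4.61 CPM in JQ1 with sgRNA, 3.48 to 3.62 CPM in JQ1 without sgRNA and 1.82 to 3.54 CPM in the control. COL1A1 was also called higher in JQ1 with sgRNA against the control (log2 fold change 0.73). The part of these shifts in the values of MYC was not tested.

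**Figure D1:**
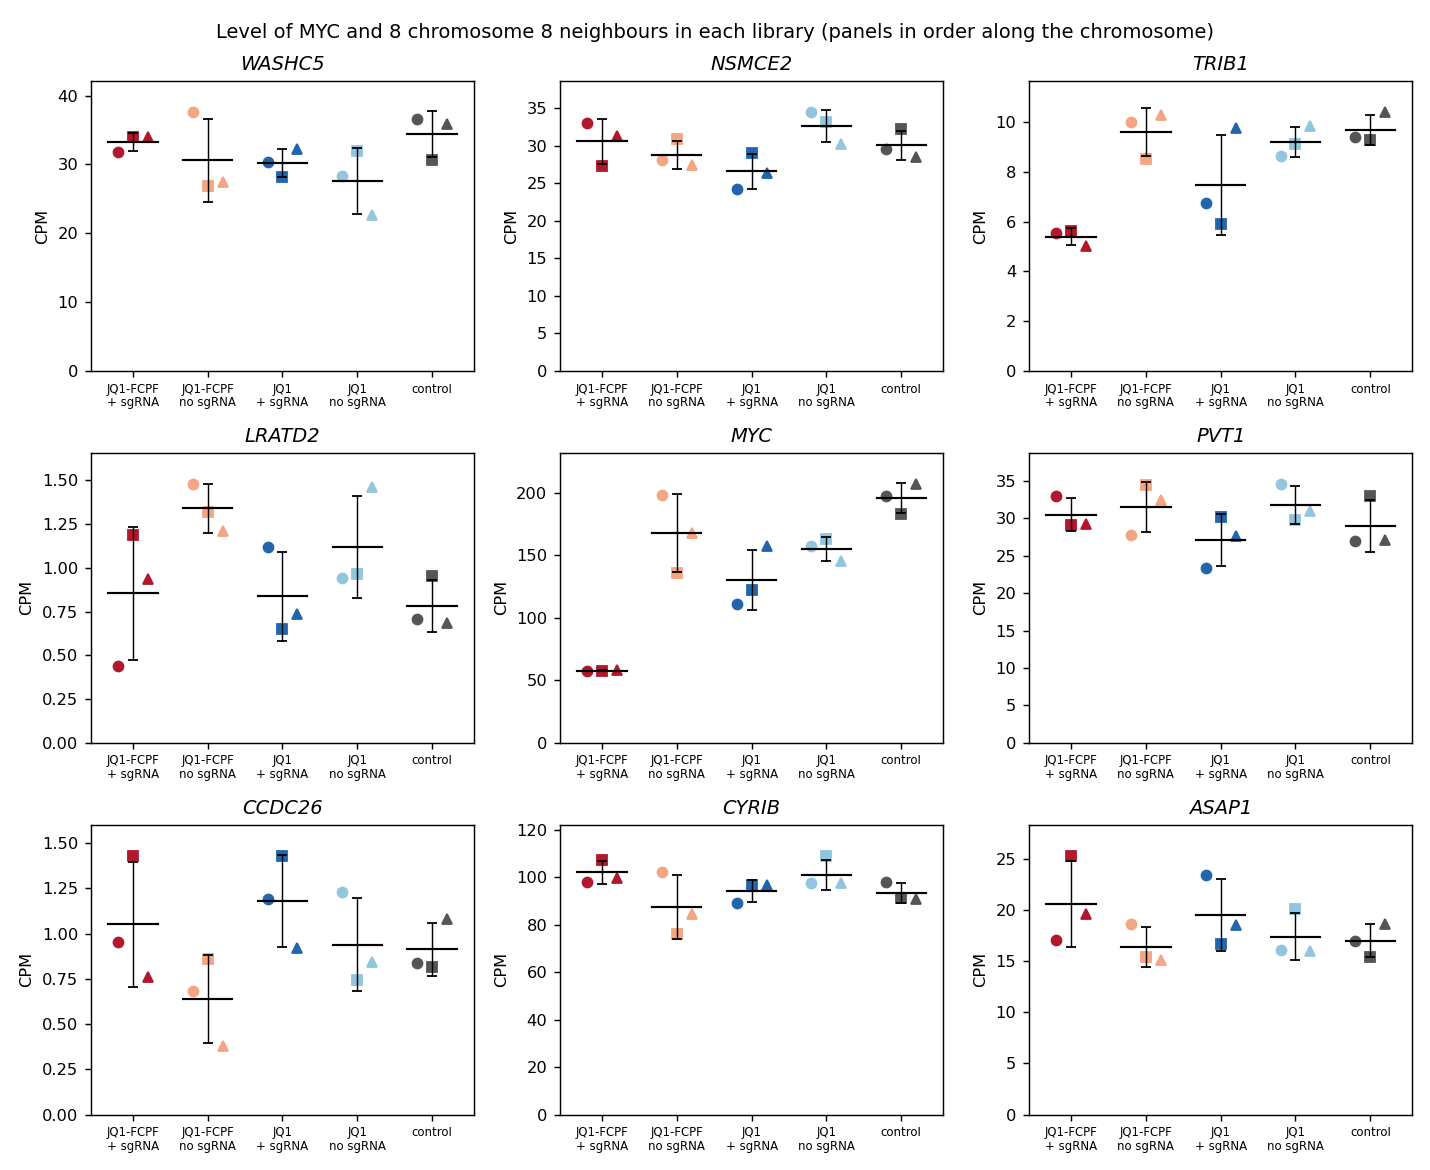
Level (CPM, vertical axes from 0) of the 9 genes in each of the 15 libraries, by group on the horizontal axes; circles, squares and triangles are replicates 1, 2 and 3, and black lines the group mean with SD. For MYC the 3 libraries of JQ1-FCPF with sgRNA sit at 57.5 to 58 CPM, below all 12 others, while PVT1 lies between 23.4 and 34.6 CPM in all libraries.

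PVT1 was measured at 33, 29.1 and 29.3 CPM in JQ1-FCPF with sgRNA, against 27.8, 34.4 and 32.4 CPM in JQ1-FCPF without sgRNA. The groups overlapped, and the log2 fold change of PVT1 was -0.01 (SE 0.13, edgeR adjusted p = 0.978). Its 95% confidence interval, -0.28 to 0.27, does not reach the fall of MYC. PVT1 averaged 27.1 ± 3.42 CPM in JQ1 with sgRNA, 31.8 ± 2.51 CPM in JQ1 without sgRNA and 29 ± 3.45 CPM in the control (SD, n = 3 each), and did not pass in any of the 9 comparisons. The ratio of MYC to PVT1 counts within a library does not depend on how libraries are scaled. It was 1.74, 1.98 and 1.98 in JQ1-FCPF with sgRNA, against 7.14, 3.97 and 5.20 in JQ1-FCPF without sgRNA. In JQ1 with sgRNA the MYC to PVT1 ratio was 4.05 to 5.68, in JQ1 without sgRNA 4.52 to 5.47, and in the control 5.54 to 7.63. The ratio in JQ1-FCPF with sgRNA did not overlap any other group.

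TRIB1 was the other member that fell. TRIB1 stood at 5.56, 5.62 and 5.02 CPM (76, 71 and 86 counts) in JQ1-FCPF with sgRNA, against 10.0, 8.51 and 10.3 CPM (162, 129 and 136 counts) in JQ1-FCPF without sgRNA. These libraries do not overlap. TRIB1 was at 6.75, 5.91 and 9.76 CPM in JQ1 with sgRNA, 8.62, 9.11 and 9.83 CPM in JQ1 without sgRNA, and 9.40, 9.26 and 10.4 CPM in the control. Under JQ1-FCPF the sgRNA gave TRIB1 a log2 fold change of -0.79 (SE 0.17, 1.73-fold, edgeR adjusted p = 0.00722). Against the control the same group gave -0.81 (SE 0.17, edgeR adjusted p = 0.00487). Under JQ1 the sgRNA effect on TRIB1 was -0.31 (95% confidence interval -0.66 to 0.03, edgeR adjusted p = 0.617). The 2 sgRNA effects on TRIB1 were not shown to differ: the interaction was -0.48 (95% confidence interval -0.98 to 0.02, edgeR adjusted p = 0.375). JQ1 with sgRNA against the control gave TRIB1 -0.41 (edgeR adjusted p = 0.0942), a comparison that passed at -0.67 without replicate 3 of JQ1 with sgRNA (edgeR adjusted p = 0.0131).

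NSMCE2 and WASHC5, which lie on either side of a shared start region on the near side of TRIB1, did not pass in any comparison. NSMCE2 stood at 33.1, 27.3 and 31.3 CPM in JQ1-FCPF with sgRNA, against 28.1, 30.9 and 27.4 CPM in JQ1-FCPF without sgRNA (log2 fold change 0.13, 95% confidence interval -0.12 to 0.37, edgeR adjusted p = 0.579). These groups overlapped. Under JQ1 the NSMCE2 groups did not overlap, at 24.3, 29 and 26.4 CPM with sgRNA and 34.5, 33.2 and 30.3 CPM without, yet the log2 fold change of -0.31 did not pass (edgeR adjusted p = 0.577). The NSMCE2 interaction was 0.44 (95% confidence interval 0.09 to 0.79, edgeR adjusted p = 0.240). Between JQ1-FCPF with sgRNA and JQ1 with sgRNA, NSMCE2 gave 0.28 (edgeR adjusted p = 0.209). Without replicate 2 of JQ1-FCPF with sgRNA, the library that stands apart, that value was 0.38 and passed (edgeR adjusted p = 0.0253).

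WASHC5 was at 31.8, 34.0 and 34.0 CPM in JQ1-FCPF with sgRNA, against 37.6, 26.8 and 27.5 CPM in JQ1-FCPF without sgRNA (log2 fold change 0.16, edgeR adjusted p = 0.538). The libraries with sgRNA lay inside the range of those without. In JQ1 without sgRNA it averaged 27.6 ± 4.74 CPM, against 34.4 ± 3.29 CPM in the control (SD, n = 3 each; log2 fold change -0.33, 95% confidence interval -0.61 to -0.06, edgeR adjusted p = 0.102). That comparison of WASHC5 passed without the 2 libraries that stand apart (edgeR adjusted p = 0.0349) and in a fit of those groups alone (0.0112). Neither of the 2 libraries is in that comparison, and the log2 fold change stayed at -0.33.

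CYRIB and ASAP1, the 2 members farthest downstream, had log2 fold changes above 0 under JQ1-FCPF with sgRNA, and neither passed. CYRIB stood at 98.1, 107 and 99.5 CPM in JQ1-FCPF with sgRNA, against 102, 75.9 and 84.3 CPM in JQ1-FCPF without sgRNA (log2 fold change 0.25, 95% confidence interval 0.04 to 0.47, edgeR adjusted p = 0.150). Replicate 1 of JQ1-FCPF without sgRNA overlapped the group with sgRNA, and without that library CYRIB passed at 0.37 (edgeR adjusted p = 0.0319). ASAP1 was at 17.1, 25.3 and 19.6 CPM in JQ1-FCPF with sgRNA, against 18.6, 15.4 and 15.1 CPM in JQ1-FCPF without sgRNA (log2 fold change 0.36, 95% confidence interval 0.07 to 0.66, edgeR adjusted p = 0.136). Its highest value, 25.3 CPM, was in replicate 2, the library that stands apart. CYRIB and ASAP1 passed in none of the other 8 comparisons. The ratio of MYC to CYRIB counts was 0.587, 0.538 and 0.583 in JQ1-FCPF with sgRNA, against 1.95, 1.79 and 2.0 in JQ1-FCPF without sgRNA. It was 1.25 to 1.62 in JQ1 with sgRNA, 1.48 to 1.60 in JQ1 without sgRNA and 2.01 to 2.28 in the control. Thus MYC counts outnumbered those of CYRIB in 12 libraries, and CYRIB counts those of MYC in the 3 of JQ1-FCPF with sgRNA.

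LRATD2, the nearest member on the near side of MYC, and CCDC26 were close to the limit of this depth. LRATD2 had 6, 15 and 16 counts in JQ1-FCPF with sgRNA (0.439, 1.19 and 0.935 CPM), against 24, 20 and 16 counts in JQ1-FCPF without sgRNA (1.48, 1.32 and 1.21 CPM). These CPM values do not overlap, but the log2 fold change of LRATD2 was -0.61 with a 95% confidence interval of -1.33 to 0.10 (edgeR adjusted p = 0.310). Against the control, at 0.782 ± 0.149 CPM, JQ1-FCPF without sgRNA gave LRATD2 0.78 (95% confidence interval 0.07 to 1.49, unadjusted p = 0.0338, edgeR adjusted p = 1.0). CCDC26 had 13, 18 and 13 counts in JQ1-FCPF with sgRNA, against 11, 13 and 5 counts in JQ1-FCPF without sgRNA (log2 fold change 0.69, 95% confidence interval -0.08 to 1.47, edgeR adjusted p = 0.290). The interval of LRATD2 holds the value of TRIB1, -0.79, and that of CCDC26 does not.

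Per kilobase of exon, the 9 genes kept widely different levels. In JQ1-FCPF with sgRNA, MYC had 19.2 CPM per kb, CYRIB 11.1, NSMCE2 10.2, WASHC5 6.95, PVT1 5.55, ASAP1 2.49, TRIB1 1.31, CCDC26 0.516 and LRATD2 0.158 CPM per kb. In the control MYC had 65.2 CPM per kb, and CYRIB, next in level, 10.2 CPM per kb. MYC was the highest of the 9 per kilobase in both groups.

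Counted over the 9 members, the sgRNA under JQ1-FCPF gave 2 called, MYC and TRIB1, both lower, where 6.25% of all genes tested were called. Groups did not overlap for 3 members (MYC, TRIB1 and LRATD2), against 21.7% of all genes tested. The median log2 fold change was 0.13 over the members and 0.01 over all genes. Under JQ1 the sgRNA gave 0 members called by edgeR or DESeq2, where 0.0129% of all genes were called; 1 member, NSMCE2, had an unadjusted p under 0.05. The interaction called 1 member, MYC, against 0.786% of all genes. Against the control, JQ1-FCPF with sgRNA gave 2 members (MYC and TRIB1) where 7.21% of genes were called, and JQ1-FCPF without sgRNA gave 0 where 0.00644% were (1 at an unadjusted edgeR p under 0.05, LRATD2; 0 by DESeq2). JQ1 with sgRNA gave 1 member, MYC, where 14.2% of genes were called, and JQ1 without sgRNA gave 0 where 12.3% were (2 at an unadjusted edgeR p under 0.05, MYC and WASHC5; 0 by DESeq2). JQ1-FCPF against JQ1 called 1 member, MYC, with the sgRNA present, where 2.95% of genes were called, and 0 members with no sgRNA, where 7.8% were (0 at an unadjusted edgeR p under 0.05 and 0 by DESeq2). These comparisons share libraries and are not independent.

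**Figure D2:**
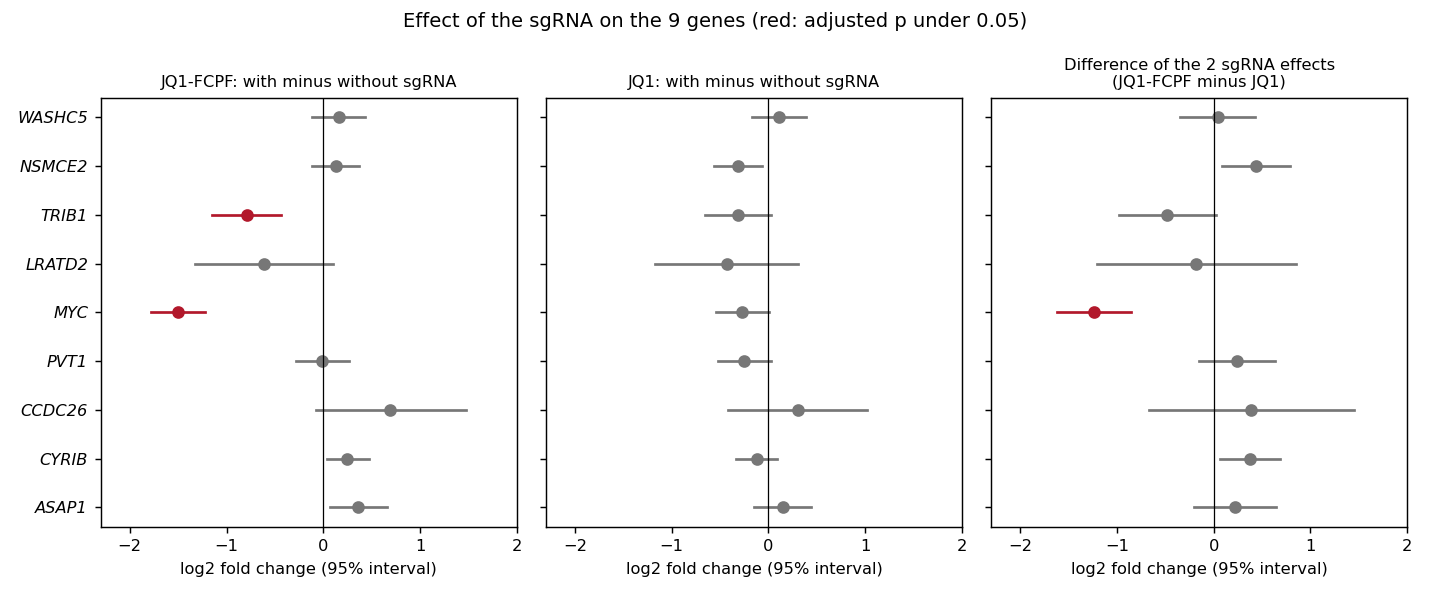
Log2 fold change (horizontal axes) with 95% confidence interval of the 9 genes, from top to bottom in order along the chromosome, for the sgRNA under JQ1-FCPF, the sgRNA under JQ1, and the difference of these effects; red marks an edgeR adjusted p under 0.05. MYC is red at -1.50 and -1.24 in the first and last panels, TRIB1 at -0.79 in the first, and no gene in the middle panel.

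The genes around MYC were counted by distance. Of 158 genes within 5 Mb of its start, 33 were tested, 24 of them besides the 9 members. Under JQ1-FCPF with against without sgRNA, RNF139, an endoplasmic reticulum ubiquitin ligase 3.26 Mb on the near side of MYC, was the 1 called among the 24, where 6.25% of all genes were called. It averaged 19.7 CPM in JQ1-FCPF with sgRNA and 27.1 CPM in JQ1-FCPF without sgRNA (log2 fold change -0.42, SE 0.11, edgeR adjusted p = 0.0202). Within 3 Mb, leaving out MYC, 1 of 11 genes tested was lower (TRIB1) and 0 were higher, with a median log2 fold change of 0.13. From 3 to 10 Mb 1 of 34 was lower and 0 higher (median 0.03), and on the rest of chromosome 8, 17 of 463 were lower and 12 higher (median 0.01). Over all genes tested 651 were lower and 319 higher, with a median of 0.01.

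**Figure D3:**
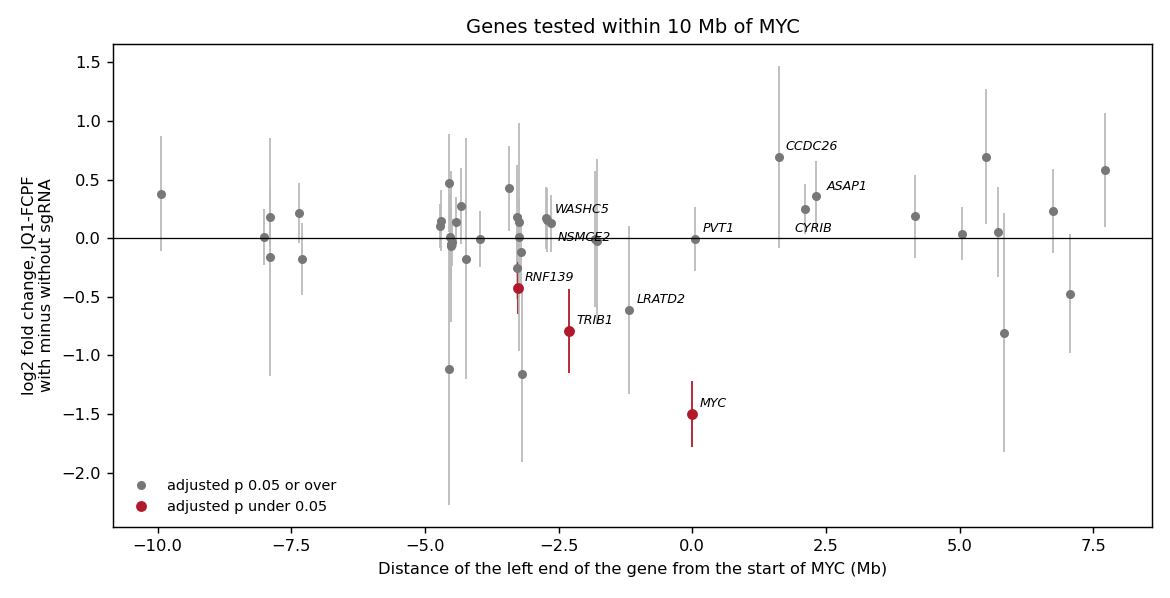
Log2 fold change with 95% confidence interval (vertical axis, JQ1-FCPF with minus without sgRNA) of the genes tested within 10 Mb of MYC against the distance of their left end from the start of MYC (horizontal axis, Mb); red marks an edgeR adjusted p under 0.05. The 3 red genes are MYC at -1.50, TRIB1 at -0.79 and RNF139 at -0.42, and genes without a call lie between them and MYC.

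Across all comparisons, 8 of the 24 other genes within 5 Mb were called at least once. The share of all genes called at least once was not counted, so this number cannot be read as high or low. Against the control 5 were called with JQ1 and sgRNA, where 14.2% of all genes were, and 3 with JQ1 without sgRNA, where 12.3% were; TBC1D31 and NTAQ1 were in both counts. TBC1D31 was higher with JQ1 and sgRNA (log2 fold change 0.48, edgeR adjusted p = 0.0155) and with JQ1 without sgRNA (0.42, 0.0342). NTAQ1, a glutamine amidase acting on protein N termini, was higher in the same groups (0.58 and 0.55, edgeR adjusted p = 0.0171 and 0.0275). FAM83A was higher with JQ1 and sgRNA, at 219 CPM against 133 CPM in the control (0.68, edgeR adjusted p = 0.0275), and lower in JQ1-FCPF than in JQ1 without sgRNA (-0.72, edgeR adjusted p = 0.0345). LINC00861 was higher (0.98, edgeR adjusted p = 0.0216) and MTSS1 lower (-1.14, edgeR adjusted p = 0.0406) with JQ1 and sgRNA, and TATDN1 was higher with JQ1 without sgRNA (0.34, edgeR adjusted p = 0.0303). Against the control, RNF139 (-0.45, edgeR adjusted p = 0.0114) and FAM83A-AS2 (-1.70, edgeR adjusted p = 0.0479) were lower in JQ1-FCPF with sgRNA. FAM83A-AS2 is an antisense gene under 1 CPM within the span of FAM83A. Whether exons of the 2 genes overlap was not checked, and if they do, reads there may be mixed if strand was not used.

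The 8 profiles closest to that of MYC over the libraries were of genes on other chromosomes, where most genes lie. Of the 15517 genes tested, 11 besides MYC lay within 3 Mb of it, 34 at 3 to 10 Mb and 463 on the rest of chromosome 8. For each gene of at least 5 CPM on average, log2 CPM was centred on its mean over the 15 libraries, and likeness was the root mean square difference from MYC. Of 10295 genes compared, the 8 closest were CITED2 (0.19), ALKBH4 (0.20), C10orf71 (0.21), TGIF1 (0.22), BHLHE40 (0.22), F2RL3 (0.23), ZFP36L2 (0.24) and IRF1 (0.24). The median gene differed by 0.64, and a flat profile would differ by 0.63. CITED2, a transcriptional co-regulator on chromosome 6, averaged 7.0 CPM in JQ1-FCPF with sgRNA and 21.5 CPM in JQ1-FCPF without sgRNA. BHLHE40, a transcriptional repressor on chromosome 3, averaged 45.9 CPM in JQ1-FCPF with sgRNA, 130 in JQ1-FCPF without sgRNA, 97.8 in JQ1 with sgRNA, 149 in JQ1 without sgRNA and 184 CPM in the control. Of the 8 neighbours of MYC, 6 reached 5 CPM on average, and LRATD2 and CCDC26 did not and were not ranked. TRIB1 came nearest of the 6, in place 55 (0.34), and PVT1 was in place 6180 (0.66). NSMCE2 was in place 5765, WASHC5 in 6435, CYRIB in 7051 and ASAP1 in 9399. TRIB1's own closest profiles, each differing by 0.16, were TICAM1, KTI12, DUSP10 and FOXL2.

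**Figure D4:**
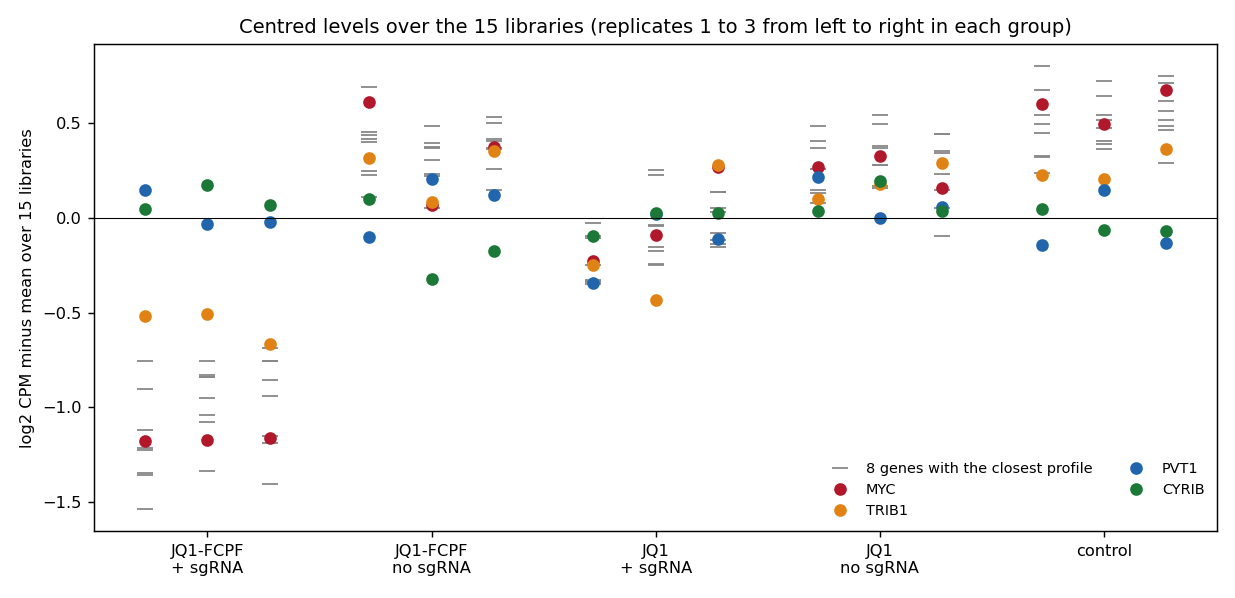
Log2 CPM minus the gene's mean over the 15 libraries (vertical axis) in each library by group (horizontal axis, replicates 1 to 3 from left to right), for MYC, TRIB1, PVT1, CYRIB (points) and the 8 genes with the profile closest to MYC (grey dashes). The grey dashes and MYC are low in the 3 libraries of JQ1-FCPF with sgRNA, replicate 2 included, and TRIB1 less so, while PVT1 and CYRIB stay near 0.

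Genes that MYC is known to drive were then counted. Of 58 established MYC target genes, all tested, the sgRNA under JQ1-FCPF gave 6 lower and 1 higher, with a median log2 fold change of -0.04. That is 12.1% called and 10.3% lower, against 6.25% called and 4.20% lower over all genes, whose median was 0.01. PPAN, a ribosome assembly factor, averaged 28.3 CPM in JQ1-FCPF with sgRNA and 57.1 CPM in JQ1-FCPF without sgRNA (log2 fold change -0.96, edgeR adjusted p = 0.000622); reads shared with its readthrough partner make it uncertain. PPRC1, a co-activator related to PGC-1, fell by 0.62 (edgeR adjusted p = 0.000430) and RRS1, in ribosome assembly, by 0.65 (edgeR adjusted p = 0.00222). NOP2 (-0.43), NOP16 (-0.54) and WDR43 (-0.35), which serve in the nucleolus, were also lower, and MTHFD2, a mitochondrial folate enzyme, was higher (0.65, edgeR adjusted p = 0.0122). Without replicate 2 of JQ1-FCPF with sgRNA the count was 3 lower and 1 higher (6.90% called, against 6.05% of all genes), with a median of 0.07, on the other side of 0. TFRC, among these targets, is also a K562 marker. The nucleolar proteins NCL and NPM1, with log2 fold changes of 0.01 and 0.05, did not pass.

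With JQ1, more of these targets were called against the control. Against the control, 20 of 58 were lower and 1 higher with JQ1 and sgRNA (median -0.26), where 7.04% of all genes were lower. With JQ1 without sgRNA 19 were lower, 32.8% of the list, and 0 higher (median -0.27), where 6.23% of all genes were lower. JQ1-FCPF with sgRNA gave 8 lower and 0 higher (median -0.10), where 4.79% of all genes were lower. Without its replicate 2 the same comparison gave 6 lower and a median of 0.01, and without the 2 libraries that stand apart 10 lower and 2 higher, also with a median of 0.01, so the median turned sign. JQ1-FCPF without sgRNA gave 0 called by edgeR and DESeq2 (median -0.05; 1 at an unadjusted edgeR p under 0.05). ODC1, the first enzyme of polyamine synthesis, had a log2 fold change of -0.13 in JQ1-FCPF with sgRNA (edgeR adjusted p = 0.668), -0.59 in JQ1 with sgRNA (edgeR adjusted p = 0.0122) and -0.61 in JQ1 without sgRNA (edgeR adjusted p = 0.0119), each against the control. JQ1-FCPF with sgRNA against JQ1 with sgRNA called 1 target higher and 0 lower (1.72% called, against 2.95% of all genes). Without replicate 2 of JQ1-FCPF with sgRNA it called 22 higher and 1 lower (39.7%, against 17.4% of all genes). JQ1-FCPF against JQ1 without sgRNA gave 12 higher and 1 lower (22.4%, against 7.8% of all genes). Without the 2 libraries that stand apart it gave 28 higher and 2 lower (51.7%, against 22.6%). Without these 2, JQ1 without sgRNA gave 31 lower and 1 higher against the control, with 53.4% of targets lower, against 13.1% of all genes. Neither of the 2 libraries is in JQ1 without sgRNA, JQ1-FCPF without sgRNA or the control, so these counts moved through the fit that all groups share. JQ1 with sgRNA, which holds 1 of them, gave 25 lower and 3 higher against the control without the 2 (43.1% lower, against 11.3% of all genes).

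**Figure D5:**
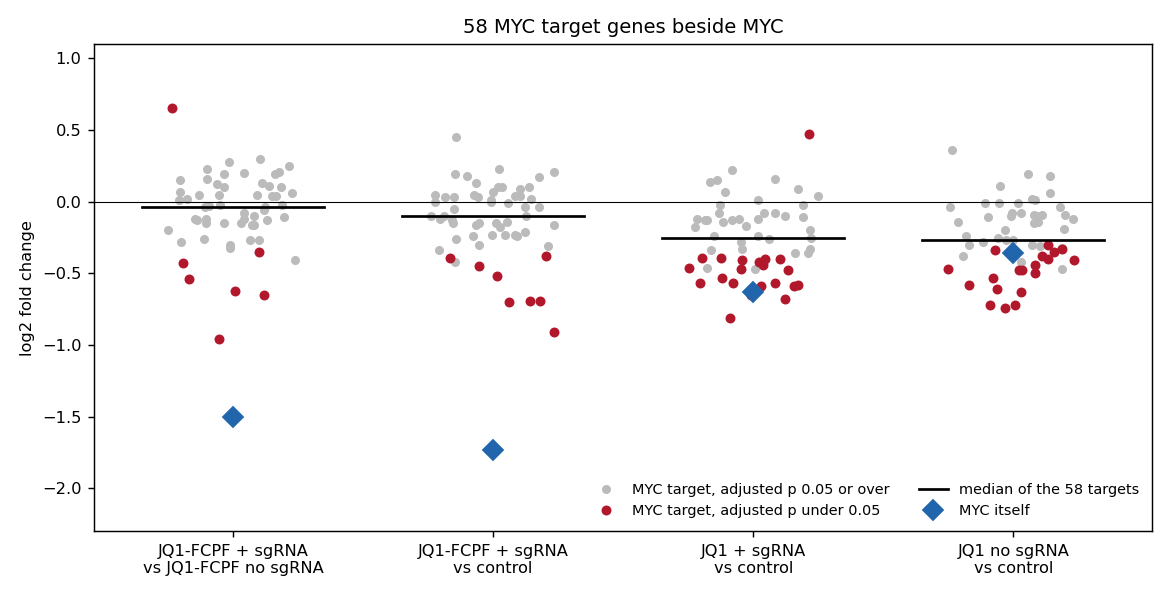
Log2 fold change (vertical axis) of 58 MYC target genes in 4 comparisons (horizontal axis); red points passed an edgeR adjusted p of 0.05, black lines are medians and blue diamonds MYC. MYC is at -1.50, -1.73, -0.63 and -0.36 from left to right, and the median of the targets at -0.04, -0.10, -0.26 and -0.27.

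Of 12 genes of the MYC network of dimerisation partners and relatives, 11 were tested. Under JQ1-FCPF the sgRNA lowered MLX, a partner of the MondoA and ChREBP factors, to 55.1 CPM, against 71.6 CPM without sgRNA (log2 fold change -0.34, edgeR adjusted p = 0.0186). MLX was the 1 called of the 11 by edgeR (9.09%, against 6.25% of all genes). DESeq2 called MLXIPL as well, among 1165 genes that it called in this comparison. MAX itself had a log2 fold change of -0.07 (95% confidence interval -0.27 to 0.13, edgeR adjusted p = 0.746). Against the control, 3 of the 11 were called with JQ1 and sgRNA (27.3%, against 14.2% of all genes) and 2 with JQ1 without sgRNA (18.2%, against 12.3%), all higher. MLXIPL, which encodes ChREBP, had log2 fold changes of 1.15 and 0.94 in these comparisons (edgeR adjusted p = 0.00197 and 0.00831). The MYC paralogue MYCL had 0.86 and 0.93 (edgeR adjusted p = 0.0207 and 0.0165), and MXD4, a MAX partner, had 0.44 with JQ1 and sgRNA (edgeR adjusted p = 0.0193). JQ1-FCPF with sgRNA against the control called MLXIPL too, at 0.93 (edgeR adjusted p = 0.00810), and MLX, lower (18.2% called, against 7.21% of all genes). Among 10 genes of MYC mRNA and protein turnover, the sgRNA under JQ1-FCPF gave 1 called, the kinase AURKA (10%, against 6.25% of all genes). AURKA was lower, at 75.7 CPM in JQ1-FCPF with sgRNA and 107 CPM in JQ1-FCPF without sgRNA (log2 fold change -0.47, edgeR adjusted p = 0.0244).

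Partners of the other members were read in the same way under JQ1-FCPF with against without sgRNA, where 6.25% of all genes tested were called. The lists are too short for 0 or 1 called to differ clearly from that share. Of 5 Tribbles genes and partners, TRIB2 was called, lower by a log2 fold change of -0.33 (edgeR adjusted p = 0.0385). COP1 was not called by edgeR (0.30, edgeR adjusted p = 0.0721), but DESeq2 called both COP1 and TRIB2. Of 2 relatives of LRATD2 and CCDC26, LRATD1 was lower, at 5.23 CPM in JQ1-FCPF with sgRNA and 10.1 CPM in JQ1-FCPF without sgRNA (log2 fold change -0.94, edgeR adjusted p = 0.00625). None of 8 genes of the SMC5-SMC6 complex, 5 of the WASH complex, 11 of the CYRI proteins and WAVE complex, or 4 of the ASAP and ARF proteins was called. At an unadjusted edgeR p under 0.05 there were 1, 1, 3 and 2 of them, in that order, and DESeq2 called 0. The median log2 fold changes of these lists were 0.00, -0.21, 0.17 and 0.22, against 0.01 over all genes. Against the control, where 14.2% of all genes were called with JQ1 and sgRNA and 12.3% with JQ1 without sgRNA, the SMC5-SMC6 list had 2 of 8 lower in each (NSMCE3 and SLF2, and SLF2 and SMC5). The WASH list had 0 of 5 called with sgRNA by edgeR or DESeq2, 0 also at an unadjusted p under 0.05, and 2 lower without, WASHC2A and WASHC2C, close copies whose reads may have been split between them. The list of CYRI and WAVE proteins had 2 of 11 higher with sgRNA, CYFIP2 and NCKAP1L, and 1 without, NCKAP1L. The Tribbles list had 2 of 5 lower with sgRNA, TRIB2 and CEBPB, and 1 without, TRIB2. TRIB2 was lower as well with JQ1-FCPF and sgRNA against the control, where 7.21% of all genes were called. Its fall was thus called with free JQ1 too. ASAP3 was the 1 of 4 ASAP and ARF genes called, higher with JQ1 and sgRNA (0.66, edgeR adjusted p = 0.00708), with JQ1 without sgRNA (0.48, edgeR adjusted p = 0.0399) and with JQ1-FCPF and sgRNA (0.49, edgeR adjusted p = 0.0480).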

How the data were processed

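For each of 15 libraries the authors deposited raw counts of reads per gene, whole numbers with no normalization, in columns as feature-counting programs write them (per the file headers). RNA was extracted with Trizol and sequenced by Azenta, per the labels' protocols. Not given in the sources used here are aligner, build, annotation release, library kit and use of strand. Of the identifiers, 56898 were found in GENCODE release 29, where 96.3% had the same start and end, so coordinates are in that build, GRCh38; 40907 of 57500 were given a symbol.

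Groups came from the labels. CPM was computed here from column totals. Tests used edgeR 4.0.16 in R 4.3.3 on the deposited counts: filterByExpr (15517 genes kept), TMM scaling (factors 0.9528 to 1.0765), 1 mean per group over all 15 libraries, the quasi-likelihood F-test and Benjamini-Hochberg adjustment over all genes, with a threshold of 0.05. The biological coefficient of variation was 11.1%. Log2 CPM for profiles and principal components carried a prior count of 2. The fit was tested on simulated data. Library pairs within a group differed beyond sampling noise (chi-square per degree of freedom 2.87 to 47.4). Alternatives were DESeq2 1.42.0, its size factors or column totals in edgeR, fitting only the groups compared, keeping genes of low counts, a replicate block, and libraries left out.

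The members, the gene lists and the tests were chosen with earlier results of these data known. Named genes are the 9 members and other genes within 5 Mb of MYC past the threshold in any comparison. Also named are the 8 profiles closest to MYC and the 4 closest to TRIB1. List genes past the threshold in JQ1-FCPF with against without sgRNA were to be named, at most 6 per list by smallest p. For the MYC target genes all 7 called were named, beyond that limit. CITED2 and BHLHE40 values, and MAX, NCL, NPM1, ODC1, COP1 and the network and partner genes called against the control, were added to the text after their values were seen. No sequence is printed.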

Additional observations from a re-analysis of the deposited data

Results flagged for a closer look

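The effect of the sgRNA on MYC differed between the compounds by a test of the difference itself. MYC changed by -1.50 on the log2 scale with sgRNA under JQ1-FCPF and by -0.27 under JQ1, a difference of -1.24 (SE 0.19, edgeR adjusted p = 0.00187). In 19 alternatives that difference ranged between -1.37 and -1.06 and passed in each. Groups of 3 libraries are too small for a check of single libraries against the rest of their group.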

How the results depend on the processing

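Under JQ1-FCPF with against without sgRNA, MYC passed in all 13 alternatives (log2 fold change -1.63 to -1.37), as did TRIB1 (-0.88 to -0.73, edgeR adjusted p 0.00103 to 0.0450). Against the control, MYC in JQ1 without sgRNA passed at -0.38 with no filter on low counts, -0.35 without the 2 libraries that stand apart and -0.36 when those groups alone were fitted. Members called there were 1 with no filter and 2, with WASHC5, in each of the other cases. Neither of the 2 libraries is in that comparison. The SE of MYC there was 0.13 in the main fit, 0.11 with no filter, 0.10 without the 2 libraries and 0.07 with those groups alone. The calls thus moved with the estimate of the spread, which the groups of a fit share. What raised that spread in the main fit was not tested. Leaving out 1 library gave 1 to 2 members called for JQ1 with sgRNA against the control and for JQ1-FCPF with sgRNA against JQ1 with sgRNA. Under JQ1-FCPF with against without sgRNA, CYRIB joined MYC and TRIB1 when replicate 1 of JQ1-FCPF without sgRNA was left out (0.37, edgeR adjusted p = 0.0319).

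The title letters did not pair libraries: deviations of same-letter libraries from their group means correlated at -0.24 to 0.31, and 4 of 15 libraries correlated best with their own letter. With the letter as a replicate block, MYC under JQ1-FCPF with against without sgRNA stayed at -1.50, and 833 genes were called in place of 970. The block turned CCDC26 for JQ1 without sgRNA against the control (0.00) and PVT1 for JQ1-FCPF against JQ1 without sgRNA (0.00), both uncalled.

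In all, 19 values of members changed sign near 0, and 0 of them passed under any alternative. Without the 2 libraries that stand apart these were PVT1 under JQ1-FCPF with against without sgRNA (0.05), LRATD2 (-0.06), WASHC5 (0.01) and CCDC26 (-0.04) for JQ1-FCPF with sgRNA against the control, and LRATD2 (-0.17) and CYRIB (0.05) for JQ1 with sgRNA against the control. With column totals they were CYRIB (0.01) for that last comparison, PVT1 (-0.01) for JQ1-FCPF against JQ1 without sgRNA, and WASHC5 (-0.01) in the interaction. With no filter they were CCDC26 (-0.01) and ASAP1 (-0.01) for JQ1 without sgRNA against the control.

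Leaving out 1 library gave these ranges. PVT1 ran -0.10 to 0.05 under JQ1-FCPF with against without sgRNA, and WASHC5 -0.02 to 0.23 under JQ1. Against the control, JQ1-FCPF with sgRNA gave LRATD2 -0.06 to 0.45, NSMCE2 -0.01 to 0.16, WASHC5 -0.07 to 0.02 and CCDC26 -0.04 to 0.38. JQ1-FCPF without sgRNA gave TRIB1 -0.08 to 0.07, NSMCE2 -0.12 to 0.00 and ASAP1 -0.14 to 0.01. JQ1 with sgRNA gave LRATD2 -0.17 to 0.24 and CYRIB -0.07 to 0.04, and JQ1 without sgRNA gave CCDC26 -0.24 to 0.16 and ASAP1 -0.11 to 0.08. JQ1-FCPF against JQ1 gave LRATD2 -0.13 to 0.39 and CCDC26 -0.36 to 0.07 with sgRNA, and PVT1 -0.06 to 0.10 and ASAP1 -0.16 to 0.05 without. In the interaction LRATD2 ran -0.41 to 0.11 and WASHC5 -0.07 to 0.21.

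Counts over all genes moved more than the members did. Under JQ1-FCPF with against without sgRNA they ran between 351, in a fit of those groups alone, and 1600, without the 2 libraries that stand apart, and were 487 and 428 without replicates 2 and 3 of JQ1-FCPF without sgRNA. The ranges were 542 to 1745 (main 1119) for JQ1-FCPF with sgRNA, 1 to 4 (main 1) for JQ1-FCPF without sgRNA, 726 to 3582 (main 2211) for JQ1 with sgRNA and 430 to 4521 (main 1908) for JQ1 without sgRNA, each against the control. They were 0 to 80 (main 2) for the sgRNA under JQ1 and 50 to 511 (main 122) for the interaction. For JQ1-FCPF against JQ1 they were 11 to 3176 (main 458) with sgRNA, with 2757 without replicate 2 of JQ1-FCPF with sgRNA, and 76 to 3554 (main 1210) with no sgRNA. Depth limits LRATD2 and CCDC26, at 5 to 24 counts per library.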

Other observations

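TRIB1 to NSMCE2 count ratios, for genes that lie near each other before MYC, were 0.168, 0.206 and 0.160 in JQ1-FCPF with sgRNA, against 0.357, 0.275 and 0.375 in JQ1-FCPF without sgRNA. They were 0.204 to 0.369 in JQ1 with sgRNA, 0.250 to 0.325 in JQ1 without sgRNA and 0.287 to 0.364 in the control. The ratio of JQ1-FCPF with sgRNA overlapped JQ1 with sgRNA, through replicate 2 of each, and no other group.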
